A study of Mus musculus with 8 samples.

Results

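Antisense and bidirectional-promoter noncoding RNA genes were followed in mouse MII oocytes, the mature eggs arrested at the second meiotic metaphase. The set held every gene that the GENCODE M21 annotation types as antisense or as a bidirectional-promoter long noncoding RNA and was chosen by its level, a mean of at least 1 FPKM (fragments mapped to a gene, scaled to its exon length and to the depth of the library) over the 8 libraries. It comprised 108 genes, 95 antisense and 13 bidirectional, of 24860 genes listed. The files listed 1144 genes of these types, 1045 antisense and 99 bidirectional. Just inside the limit lay Gm42848 at a mean of 1.004 FPKM, Gm15942 at 1.007 FPKM and Gm28319 at 1.024 FPKM. Just outside it lay AV099323 at 0.984 FPKM, Gm37892 at 0.981 FPKM and 4930515G01Rik at 0.973 FPKM.

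Esrp1 encodes an epithelial splicing regulatory protein, and the study compared oocytes without it to normal ones. The Esrp1_KO group held 4 libraries from Esrp1-/- C57BL/6 females and the WT group 4 libraries from wild-type C57BL/6 females, all at postnatal day 42, or 6 weeks of age. Each library was made by Smart-seq2 from a tube of 15 directly lysed oocytes, and the design text calls the libraries biological replicates. The labels give the genotype alone, with no word on the allele or on a Cre driver.

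An antisense gene is transcribed from the DNA strand opposite another gene and may run across its exons, its introns or only its surroundings. A bidirectional-promoter RNA starts close to the start of a coding gene and runs the other way, so that both transcripts leave a shared promoter region. Many such RNAs are short-lived in the nucleus, where the RNA exosome degrades them, whereas growing oocytes store large amounts of stable RNA that later stages use without new transcription. Smart-seq2 libraries do not record the strand, so wherever exons of both strands overlap, reads of the noncoding gene and of its partner cannot be told apart. The partner of each noncoding gene was taken as the coding gene on the other strand with most overlapping exon bases, or else with overlapping span, or else with a head-to-head start within 2000 bases, or else the nearest coding gene.

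The first 120 bases are shown for 4 RNAs with large falls and 1 with a large rise, taken from GENCODE M21 transcripts on GRCm38. They lie at chr9:55030783-55033231 on the plus strand, chr11:50134431-50135004 on the minus strand, chr10:87863262-87863381 on the minus strand, chr6:115456656-115464990 on the minus strand and chr17:28905265-28905787 on the plus strand, in the order of the lines, and all but that of Igf1os cross at least 1 intron.
Gm47877: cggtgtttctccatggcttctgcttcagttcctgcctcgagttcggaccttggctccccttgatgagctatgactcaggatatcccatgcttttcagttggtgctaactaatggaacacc
Gm12195: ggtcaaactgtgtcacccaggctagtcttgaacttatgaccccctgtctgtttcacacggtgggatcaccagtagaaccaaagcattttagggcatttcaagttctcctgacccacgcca
Igf1os: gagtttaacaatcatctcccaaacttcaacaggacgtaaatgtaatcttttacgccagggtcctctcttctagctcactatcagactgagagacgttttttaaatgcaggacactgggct
Gm44079: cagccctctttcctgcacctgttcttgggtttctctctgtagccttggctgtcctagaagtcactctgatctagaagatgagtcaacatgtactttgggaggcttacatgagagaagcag
1700030A11Rik: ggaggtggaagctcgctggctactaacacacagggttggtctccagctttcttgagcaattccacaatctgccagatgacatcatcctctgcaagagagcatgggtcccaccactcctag

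For the bidirectional class, 3 promoter windows are shown, each holding both starts of a pair. They are RefSeq windows on GRCm38.p6, from 250 bases before to 50 bases after the start of the gene they are credited to, and capitals mark the bases from one GENCODE M21 start to the other. The window of Srsf5 lies at chr12:80945249-80945548 on the plus strand, with the starts of Gm20337 and Srsf5 108 bases apart. That of Yap1 lies at chr9:8004547-8004846 on the minus strand, with the starts of Gm45494 and Yap1 234 bases apart. That of C330013E15Rik lies at chr15:100615061-100615360 on the minus strand, with the starts of C330013E15Rik and Dazap2 239 bases apart.
Srsf5 and Gm20337: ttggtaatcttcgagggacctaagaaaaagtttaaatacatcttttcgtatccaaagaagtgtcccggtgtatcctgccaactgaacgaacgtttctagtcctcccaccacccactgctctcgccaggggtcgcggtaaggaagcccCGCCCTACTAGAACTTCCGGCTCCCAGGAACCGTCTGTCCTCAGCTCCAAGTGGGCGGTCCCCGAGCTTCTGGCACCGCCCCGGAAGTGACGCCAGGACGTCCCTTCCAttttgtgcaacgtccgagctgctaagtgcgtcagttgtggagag
Yap1 and Gm45494: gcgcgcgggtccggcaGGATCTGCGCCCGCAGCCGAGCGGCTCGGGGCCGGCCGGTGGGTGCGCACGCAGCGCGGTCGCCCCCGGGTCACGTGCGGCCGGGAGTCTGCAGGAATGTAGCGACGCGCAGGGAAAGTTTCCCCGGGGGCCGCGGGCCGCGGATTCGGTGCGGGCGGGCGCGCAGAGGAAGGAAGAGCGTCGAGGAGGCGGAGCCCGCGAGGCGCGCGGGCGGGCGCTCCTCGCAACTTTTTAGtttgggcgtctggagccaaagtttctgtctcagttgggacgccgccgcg
C330013E15Rik and Dazap2: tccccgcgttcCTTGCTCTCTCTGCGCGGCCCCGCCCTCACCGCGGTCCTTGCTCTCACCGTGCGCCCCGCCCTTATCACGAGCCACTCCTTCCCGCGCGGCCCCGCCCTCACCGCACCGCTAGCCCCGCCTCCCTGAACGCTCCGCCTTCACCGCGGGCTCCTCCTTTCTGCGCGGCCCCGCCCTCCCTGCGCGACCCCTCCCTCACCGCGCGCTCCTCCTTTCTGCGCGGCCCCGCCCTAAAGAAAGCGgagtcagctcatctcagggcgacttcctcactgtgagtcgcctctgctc

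All 3 windows held the GC box letters GGGCGG on at least 1 strand, and none held CCAAT or TATAAA on either strand. Over all 32851 RefSeq windows, 35.7% held GGGCGG, 37.4% held CCAAT and 13.6% held TATAAA, and the median window had 7 CpG dinucleotides. The 3 windows had 20, 49 and 36 CpG, in the order shown. The 7 windows found for bidirectional genes of the set had a median of 30 CpG and 71.4% held GGGCGG, whereas the 59 windows of antisense genes had a median of 5 CpG and 23.7% held it. CCAAT was held by 28.6% of the 7 and by 32.2% of the 59, so the 3 windows shown do not stand for the class in this. RefSeq windows were matched for 51 of the 108 genes, some with several starts, and a match of letters is a description and not a binding site.

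The antisense pair Uchl1os and Uchl1 is shown by the 33 bases of Uchl1os-201 that lie opposite the first coding exon of Uchl1, at chr5:66676290-66676322 on the minus strand of GRCm38. Capitals mark the complement of the start codon.
Uchl1os: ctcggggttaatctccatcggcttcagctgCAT

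Esrp1 itself had 3.30 ± 0.68 FPKM in Esrp1_KO oocytes and 17.5 ± 1.4 FPKM in WT oocytes (SD, n = 4 each), and every Esrp1_KO library lay below every WT library. Each library implied between 24910433 and 32337966 reads on genes, from the size of the smallest steps in the values. The summed FPKM of 10 oocyte markers was 9573 to 11031 in Esrp1_KO libraries and 7887 to 8726 in WT libraries. Of these 10, 5 were past the threshold and higher in Esrp1_KO and 1, Mos, was lower. The background is 13.9% higher and 23.1% lower of all genes tested. Of 12 granulosa and cumulus markers listed, 10 stayed below 1 FPKM in every library. Of these 10, Foxl2 and Fshr never passed 0.0614 FPKM, whereas Gja1 had 0.946 FPKM in WT replicate 1 and 0 in WT replicates 2, 3 and 4. The other 2, Cyp19a1 and Kitl, were both past the threshold and lower in Esrp1_KO, so that the summed level of the markers was 3.31 to 4.69 FPKM in Esrp1_KO libraries and 8.15 to 11.2 FPKM in WT libraries. Of 6 leukocyte markers, 4 stayed below 1 FPKM in every library, and their summed level was 0.636 to 9.03 FPKM in Esrp1_KO libraries and 0.367 to 1.49 FPKM in WT libraries. The top value was that of Esrp1_KO replicate 3, with Lyz2 at 5.44 FPKM and Cd68 at 3.50 FPKM. The 3 erythroid markers listed summed to 0 FPKM in Esrp1_KO libraries and to at most 0.386 FPKM in WT libraries, and 10 markers of the 2-cell embryo to 31.2 to 42.7 FPKM in Esrp1_KO and 30.1 to 47.8 FPKM in WT libraries. What part these markers have in the results below was not tested, and in bulk samples fewer cells of a type and less RNA per cell cannot be told apart.

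Most genes of the set were modestly expressed. Their median level over the 8 libraries was 3.23 FPKM, against 5.68 FPKM over the 8021 genes tested. There were 35 genes at 1 to 2 FPKM, 39 at 2 to 5, 20 at 5 to 10, 13 at 10 to 50, and 1, Gm13752, above 50. Their exons were short, with a median of 961 bases and a range of 226 to 9734 bases, against a median of 4002.5 bases over all genes tested. The median number of exon blocks was 3, and only 3 of the 108 were a single block. They were spread over 20 chromosomes, and 88 carried only a clone or predicted-gene name. Of the 108, 64 shared no exon base with any other gene, 97 shared under 20% of their exon bases, and the highest share was 55.9%. In 42 genes some exon bases lay opposite exons of a coding gene, mostly opposite coding sequence in 21, 5′ UTR in 12, 3′ UTR in 3, and other exon parts in 6. In 79 of the 108 the noncoding gene had a higher mean FPKM than its partner, but only the noncoding genes had to reach 1 FPKM. The partner was under 1 FPKM or not listed in 58 of the 108, so that much of this count follows from the limit.

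Gm13752, an antisense-typed gene near the secreted Wnt inhibitor gene Frzb, had 175, 377, 303 and 249 FPKM in Esrp1_KO libraries and 201, 287, 248 and 209 FPKM in WT libraries. The groups overlapped, and the log2 fold change of 0.18 ± 0.23 (SE) was not past the threshold (limma adjusted p = 0.562). Gm47272 averaged 33.1 ± 6.8 FPKM in Esrp1_KO and 29.8 ± 9.7 FPKM in WT oocytes, with overlapping groups. Gm43449 averaged 16.2 ± 3.3 FPKM in Esrp1_KO and 17.3 ± 3.0 FPKM in WT oocytes, also with overlapping groups. These 3 belong to the 10 highest genes of the set, and none of the 3 was past the threshold. The summed FPKM of all 108 genes was 0.247 ± 0.038% of all FPKM in Esrp1_KO libraries and 0.279 ± 0.017% in WT libraries. Without Gm13752, a step chosen after its level was seen, the share was 0.163 ± 0.016% in Esrp1_KO and 0.207 ± 0.0095% in WT libraries.

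Of the 108 genes, 44 were past the threshold, 12 higher and 32 lower in Esrp1_KO oocytes (limma on log2(FPKM + 1), Benjamini-Hochberg over all 8021 genes tested, adjusted p below 0.05). That is 40.7% of the set, beside a background of 36.9% of all genes tested, which is close to it. By direction the set had 11.1% higher against a background of 13.9%, and 29.6% lower against a background of 23.1%. Scaling by median ratios instead gave 13 higher and 27 lower in the set and moved the median of all genes by 0.11 on the log2 scale. The split over all genes was then 1551 higher and 1466 lower, against 1111 and 1850 as scaled by the authors. The median log2 fold change was −0.18 over the set and −0.06 over all genes tested, and it was −0.32 over the 359 lincRNA genes tested. Groups did not overlap in 39 of the 108 genes, 11 higher and 28 lower, beside a background of 36.8% of all genes tested, 13.5% higher and 23.3% lower.

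The limit on the mean favours genes that are high in 1 group only. Both group means reached 1 FPKM in 84 genes, of which 8 were higher and 19 lower in Esrp1_KO. That is 32.1% past the threshold, beside a background of 36.9% of all genes tested. That background was not limited to genes with both group means at 1 FPKM, so these shares are not like for like. In 17 genes only the WT mean reached 1 FPKM, and 13 of these were lower in Esrp1_KO. In 7 genes only the Esrp1_KO mean did, and 4 of these were higher. Antisense genes gave 9 higher and 28 lower of 95, and bidirectional genes 3 higher and 4 lower of 13. By position, 7 higher and 11 lower stood among 42 genes with overlapping exons, 3 and 14 among 47 with overlapping spans, 2 and 4 among 13 head to head, and 0 and 3 among 6 without such a partner. The background beside each class is 13.9% higher and 23.1% lower of all genes tested. The difference between these classes was not tested. Leaving out each library in turn, 35 of the 44 stayed past the threshold every time, 10 higher and 25 lower.

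**Figure D1:**
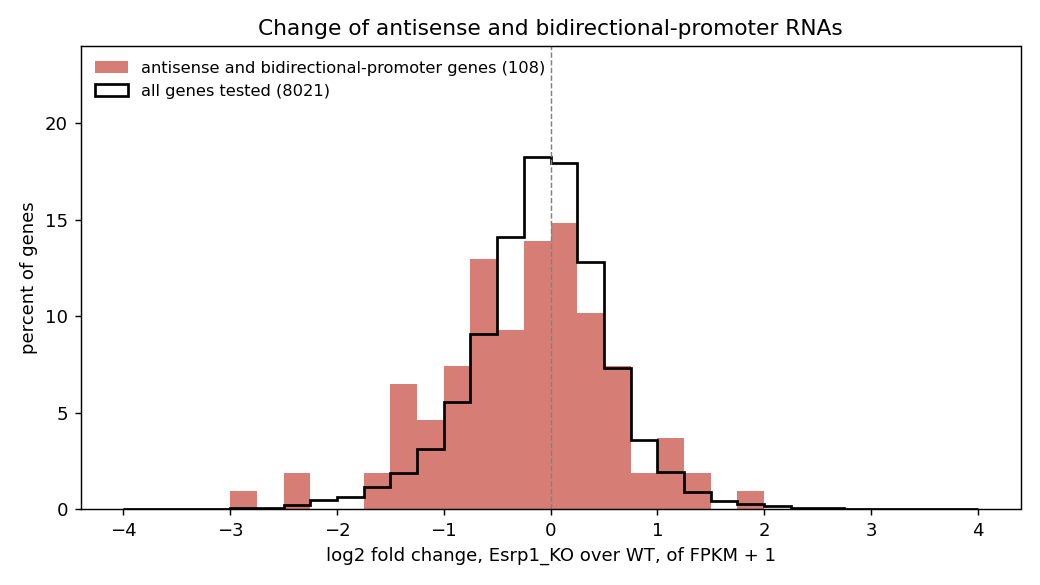
Percent of genes (vertical axis) by log2 fold change of FPKM + 1, Esrp1_KO over WT (horizontal axis), for the 108 antisense and bidirectional-promoter genes (filled) and for all 8021 genes tested (outline). The set's median lies at −0.18 and that of all genes at −0.06, and 24 of the 108 passed the threshold with a change of at least 1 on the log2 scale, 7 higher and 17 lower.

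The deepest fall on the log2(FPKM + 1) scale was that of Gm47877 (chr9:55030783-55039429, plus strand), a spliced RNA that runs within the span of Chrnb4, which encodes a nicotinic acetylcholine receptor subunit. It had 8.39, 8.71, 11.4 and 12.03 FPKM in Esrp1_KO libraries, against 74.9, 76.6, 69.6 and 77.9 FPKM in WT libraries. All Esrp1_KO libraries stood far below all WT libraries, at 13.6% of the WT mean. As a share of the WT mean, Igf1os (2.001%), Gm15414 (6.25%), Gm12195 (9.75%) and Gm44079 (10.5%) were lower still. The values rested on 937 recovered reads in Esrp1_KO and 6573 in WT libraries, and the log2 fold change was −2.78 ± 0.14 (SE; limma adjusted p = 6.52e-06). Chrnb4 itself was near 0 in both groups, with 0.0241 ± 0.024 FPKM in Esrp1_KO and 0.0171 ± 0.015 FPKM in WT oocytes. Gm47877 was thus among the 2 highest genes of the set in mean level and was expressed without its host.

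Gm12195, within the span of Tbc1d9b, had 0.264, 1.28, 0.446 and 1.43 FPKM in Esrp1_KO libraries, against 8.81, 8.01, 9.47 and 8.84 FPKM in WT libraries. The groups lay well apart, with a log2 fold change of −2.45 ± 0.21 (limma adjusted p = 4.04e-05). Igf1os, antisense to the gene of insulin-like growth factor 1, had 0.107, 0.108, 0.0402 and 0.122 FPKM in Esrp1_KO libraries, against 5.02, 3.59, 5.57 and 4.65 FPKM in WT libraries. It was almost lost in every Esrp1_KO library, with 28 reads over the 4, whereas the 4 WT libraries held 1339 reads. The log2 fold change was −2.37 ± 0.14 (limma adjusted p = 7.39e-06). Its sense gene Igf1 was near 0 in both groups, with 0.0415 ± 0.013 FPKM in Esrp1_KO and 0.108 ± 0.057 FPKM in WT oocytes, below the limit for a test. Igf1os and Igf1 share no exon bases.

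Further falls were found where the coding partner was scarcely read. Gm15414, within the span of the teneurin gene Tenm4, had 0.211, 0, 0.238 and 0.161 FPKM in Esrp1_KO libraries, against 1.90, 4.996, 0.969 and 1.89 FPKM in WT libraries. The groups did not overlap, although the WT libraries differed widely among themselves (log2 fold change −1.46 ± 0.29, limma adjusted p = 0.00361). Gm16341, which overlaps the end of the span of Armc9, averaged 0.303 ± 0.17 FPKM in Esrp1_KO and 2.13 ± 1.5 FPKM in WT oocytes (log2 fold change −1.15 ± 0.29, limma adjusted p = 0.0115). Gm16341 also lies head to head with B3gnt7, a tested coding gene named here after its values were seen. B3gnt7 had a log2 fold change of −0.38 (limma adjusted p = 0.274). The difference of that pair was −0.78 ± 0.46 and was not past the threshold (limma adjusted p = 0.228 over all pairs). Tenm4 and Armc9 stayed at or below 0.145 FPKM in every library. E130111B04Rik, whose nearest coding gene is Mpp3, had 0.0687, 2.23, 0.853 and 0 FPKM in Esrp1_KO libraries, against 3.54, 7.28, 4.42 and 2.15 FPKM in WT libraries. Its groups overlapped between replicate 2 of Esrp1_KO and replicate 4 of WT (log2 fold change −1.66 ± 0.40, limma adjusted p = 0.00913).

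Of the lower genes with a well-known neighbour, Gm16144 lies across exons of the annexin gene Anxa2. It had 32.4, 17.3, 16.4 and 23.9 FPKM in Esrp1_KO libraries, against 45.5, 39.1, 35.6 and 45.2 FPKM in WT libraries. The groups did not overlap (log2 fold change −0.89 ± 0.21, limma adjusted p = 0.00796). Anxa2 was at 0.237 ± 0.16 FPKM in Esrp1_KO and 0.141 ± 0.073 FPKM in WT oocytes. Aknaos, opposite the AT-hook gene Akna, averaged 0.867 ± 0.81 FPKM in Esrp1_KO and 2.99 ± 1.3 FPKM in WT oocytes (log2 fold change −1.13 ± 0.29, limma adjusted p = 0.0124). In both groups replicate 2 was the highest library for Aknaos. Ttc39aos1, head to head with Ttc39a at 468 bases, averaged 0.774 ± 0.39 FPKM in Esrp1_KO and 1.85 ± 0.32 FPKM in WT oocytes (log2 fold change −0.70 ± 0.18, limma adjusted p = 0.012). BC051537 lies opposite exons of H2-Oa, a gene of the class II histocompatibility region, and shares 38.1% of its exon bases with other genes. It averaged 1.70 ± 1.1 FPKM in Esrp1_KO and 5.26 ± 1.2 FPKM in WT oocytes (log2 fold change −1.29 ± 0.30, limma adjusted p = 0.00824).

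In 6 genes the noncoding gene and its partner both fell. Gm48695 starts within Nin, the gene of the centrosomal protein ninein, and shares 80 exon bases with it, all in the 5′ UTR. It had 0.506, 0.493, 0.381 and 0.434 FPKM in Esrp1_KO libraries, against 2.64, 2.18, 2.13 and 3.21 FPKM in WT libraries. No library of either group came near the other group (log2 fold change −1.27 ± 0.13, limma adjusted p = 0.000107). Nin averaged 12.8 ± 0.78 FPKM in Esrp1_KO and 24 ± 2.1 FPKM in WT oocytes (log2 fold change −0.85 ± 0.11, limma adjusted p = 0.000416). The difference between both changes was −0.42 and was not past the threshold (limma adjusted p = 0.091 over all pairs). It is on the log2(FPKM + 1) scale, which understates the fall of Gm48695, the lower gene of the pair.

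A330093E20Rik, a long antisense gene across exons of the potassium channel gene Kcnn2, had 7.67, 10.7, 11.02 and 11.02 FPKM in Esrp1_KO libraries, against 28.7, 30.6, 22.0 and 29.0 FPKM in WT libraries. It fell by 1.37 on the log2(FPKM + 1) scale and Kcnn2 by 0.93 (limma adjusted p = 0.000174 and 0.00156). That scale understates the fall of the lower gene, Kcnn2, which was at 37.5% of its WT mean in FPKM. Kcnn2 averaged 1.19 ± 0.31 FPKM in Esrp1_KO and 3.17 ± 0.68 FPKM in WT oocytes. Arhgap20os, across a coding exon of Arhgap20, averaged 13.8 ± 1.4 FPKM in Esrp1_KO and 19.96 ± 0.94 FPKM in WT oocytes. It fell by 0.51 and Arhgap20 by 0.53 on the log2(FPKM + 1) scale (limma adjusted p = 0.00682 and 0.00695). That scale understates the change of low genes, and Arhgap20 was at 46.8% of its WT mean in FPKM, so these falls are not equal in FPKM. Arhgap20 stood at 0.659 ± 0.075 FPKM in Esrp1_KO and 1.41 ± 0.21 FPKM in WT oocytes, so the antisense gene was the higher of the pair in both groups.

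Gm17171, within the span of Etl4, averaged 1.18 ± 0.78 FPKM in Esrp1_KO and 5.40 ± 2.2 FPKM in WT oocytes (log2 fold change −1.54 ± 0.33, limma adjusted p = 0.00542). Etl4 fell by 0.69 (limma adjusted p = 0.00747), with 1.49 ± 0.38 FPKM in Esrp1_KO and 3.02 ± 0.59 FPKM in WT oocytes. Gm15485, within the N-cadherin gene Cdh2, had 0.360, 0, 0.135 and 0.411 FPKM in Esrp1_KO libraries, against 2.35, 8.37, 0.413 and 1.34 FPKM in WT libraries. Replicate 2 of WT carried much of that difference and replicate 3 of WT stood level with the highest Esrp1_KO library. The log2 fold change of Gm15485 was −1.39 ± 0.47 (limma adjusted p = 0.0427), and −0.88 without WT replicate 2. Its adjusted p was 0.0517 to 0.0930 without any one of 6 libraries, namely the 4 of Esrp1_KO and replicates 1 and 4 of WT. Cdh2 fell by 1.19 (limma adjusted p = 0.000242), with 1.02 ± 0.32 FPKM in Esrp1_KO and 3.57 ± 0.30 FPKM in WT oocytes.

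Gm20337, the bidirectional RNA that leaves the shared window of the splicing factor gene Srsf5 printed above, had 0.581, 1.97, 0.780 and 0.411 FPKM in Esrp1_KO libraries, against 1.66, 2.29, 2.13 and 1.67 FPKM in WT libraries. Replicate 2 of Esrp1_KO lay within the range of the WT libraries (log2 fold change −0.66 ± 0.22, limma adjusted p = 0.0421). Without any one library other than that one, the adjusted p of Gm20337 was 0.0580 to 0.112. Srsf5 had 15.1 ± 0.84 FPKM in Esrp1_KO and 27.9 ± 3.7 FPKM in WT oocytes and fell by 0.84 on the log2 scale (limma adjusted p = 0.000772).

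Other bidirectional genes fell while the coding partner was not past the threshold. C330013E15Rik, which shares its window with Dazap2, had 3.10, 4.80, 4.49 and 3.30 FPKM in Esrp1_KO libraries, against 4.92, 6.46, 6.39 and 6.30 FPKM in WT libraries. Its groups did not overlap but came close (log2 fold change −0.52 ± 0.15, limma adjusted p = 0.0241). Without replicate 1 or 4 of Esrp1_KO, or replicate 2, 3 or 4 of WT, its adjusted p was 0.0514 to 0.0678. Dazap2 averaged 541 ± 130 FPKM in Esrp1_KO and 407 ± 11 FPKM in WT oocytes (log2 fold change 0.38, limma adjusted p = 0.102, and 0.0149 without Esrp1_KO replicate 2). Gm26559, whose start is 89 bases from that of the microtubule-associated gene Map1b, averaged 2.13 ± 0.57 FPKM in Esrp1_KO and 3.52 ± 0.42 FPKM in WT oocytes. Its log2 fold change was −0.54 ± 0.15 (limma adjusted p = 0.0201), and the adjusted p was 0.0571 without Esrp1_KO replicate 3 and 0.0551 without WT replicate 1. Map1b had a log2 fold change of −0.16 (limma adjusted p = 0.602).

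**Figure D2:**
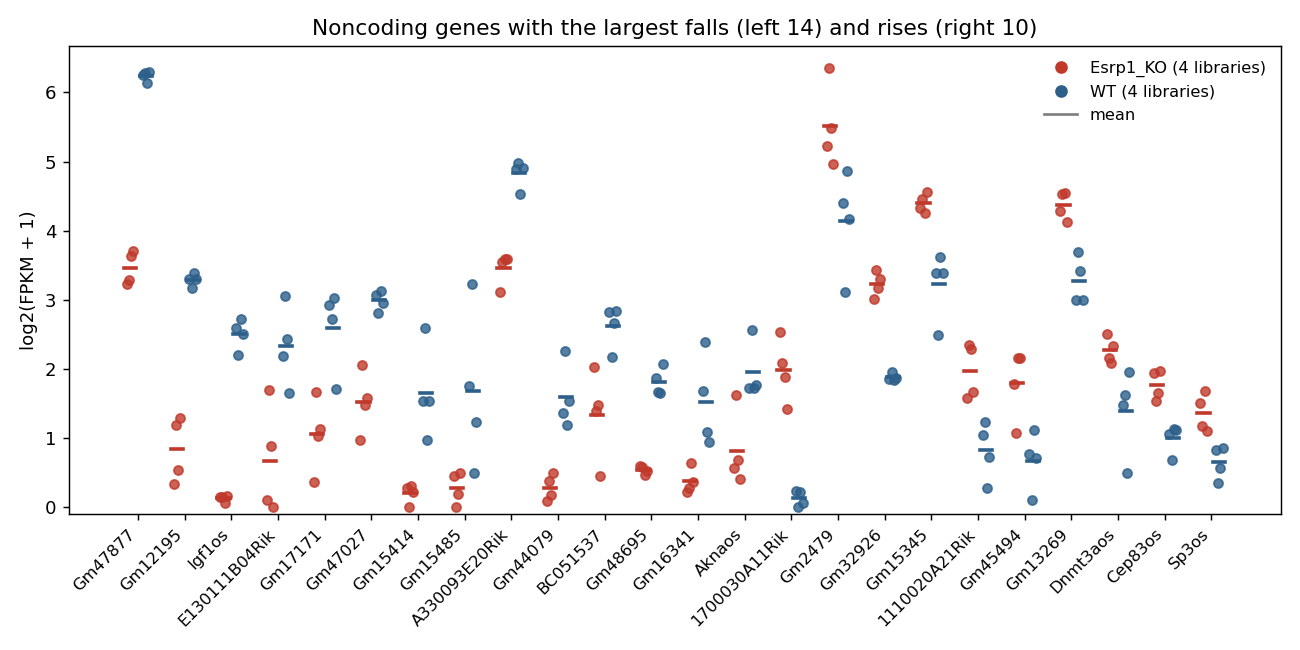
Level of each gene as log2(FPKM + 1) (vertical axis) in the 4 Esrp1_KO libraries (left of each name) and the 4 WT libraries (right), with bars at the group means, for the 14 largest falls and the 10 largest rises past the threshold. Gm47877, Igf1os, Gm48695 and Gm32926 show tight groups far apart, whereas Gm15485, E130111B04Rik and Gm45494 spread widely within a group.

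In log2(FPKM + 1), the rise was greatest for 1700030A11Rik, antisense to a coding exon of 4930539E08Rik, a coding gene known by a clone name. It had 4.81, 3.25, 2.67 and 1.67 FPKM in Esrp1_KO libraries, against 0.171, 0, 0.160 and 0.0389 FPKM in WT libraries. The RNA was scarcely present in WT oocytes, with 9 reads over the 4 libraries, whereas the Esrp1_KO libraries held 320 (log2 fold change 1.86 ± 0.22, limma adjusted p = 0.000191). The partner 4930539E08Rik had 0.922 ± 0.33 FPKM in Esrp1_KO and 1.70 ± 0.50 FPKM in WT oocytes, a fall of 0.49 with a limma adjusted p of 0.0474. That fall was not past the threshold with replicate numbers as a block (adjusted p = 0.0543), nor without any one of 6 libraries (0.0655 to 0.124, the exceptions being Esrp1_KO replicate 1 and WT replicate 2). Only 88 of the exon bases of 1700030A11Rik lie opposite its partner.

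Gm32926 (chr10:18743469-18837979, plus strand) begins opposite the first exon of Arfgef3, a gene of the ARF guanine nucleotide exchange family, and continues away from it. It had 7.07, 9.82, 7.98 and 8.86 FPKM in Esrp1_KO libraries, against 2.60, 2.88, 2.56 and 2.65 FPKM in WT libraries. The WT libraries were almost equal, and the lowest Esrp1_KO library stood far above them (log2 fold change 1.35 ± 0.12, limma adjusted p = 5.81e-05). Arfgef3 was level, at 1.78 ± 0.19 FPKM in Esrp1_KO and 1.78 ± 0.11 FPKM in WT oocytes (log2 fold change 0.00 ± 0.11). The pair shares 344 exon bases, 259 in the 5′ UTR of Arfgef3 and 85 in its coding sequence.

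Gm2479, whose start overlaps that of the calcium channel gene Orai1 by 7 bases, had 36.5, 80.8, 43.9 and 30.1 FPKM in Esrp1_KO libraries, against 20.2, 7.66, 28.1 and 16.9 FPKM in WT libraries. The groups did not overlap, but the lowest Esrp1_KO and the highest WT library were close (log2 fold change 1.37 ± 0.39, limma adjusted p = 0.02). Orai1 averaged 1.65 ± 0.59 FPKM in Esrp1_KO and 1.75 ± 0.31 FPKM in WT oocytes (limma adjusted p = 0.769), and 24.4% of the exon bases of Gm2479 are shared with some other gene. Gm15345, within March3, had 19.0, 21.01, 18.1 and 22.5 FPKM in Esrp1_KO libraries, against 9.44, 4.64, 11.3 and 9.49 FPKM in WT libraries. Every Esrp1_KO library was above every WT library (log2 fold change 1.18 ± 0.22, limma adjusted p = 0.00289). March3, a ubiquitin ligase gene, was at 0.384 ± 0.17 FPKM in Esrp1_KO and 0.8001 ± 0.24 FPKM in WT oocytes, below the limit for a test. Gm13269, across exons of the calcium channel subunit gene Cacnb2 and named here after its values were seen, averaged 19.8 ± 2.9 FPKM in Esrp1_KO and 8.89 ± 2.4 FPKM in WT oocytes (log2 fold change 1.10 ± 0.19, limma adjusted p = 0.00149).

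Of the bidirectional genes, 3 rose. 1110020A21Rik, beside the protein phosphatase gene Ppm1b, had 1.99, 4.09, 3.89 and 2.16 FPKM in Esrp1_KO libraries, against 1.07, 1.36, 0.208 and 0.648 FPKM in WT libraries. The groups lay apart (log2 fold change 1.15 ± 0.25, limma adjusted p = 0.00596). Gm45494, from the Yap1 window printed above, had 2.44, 1.10, 3.46 and 3.44 FPKM in Esrp1_KO libraries, against 0.696, 0.0733, 1.17 and 0.634 FPKM in WT libraries. Replicate 2 of Esrp1_KO overlapped with replicate 3 of WT (log2 fold change 1.12 ± 0.28, limma adjusted p = 0.0114). Cep83os, whose start lies 78 bases from that of the centriolar appendage gene Cep83, averaged 2.45 ± 0.52 FPKM in Esrp1_KO and 1.02 ± 0.28 FPKM in WT oocytes (log2 fold change 0.77 ± 0.16, limma adjusted p = 0.00438). None of the 3 coding partners was past the threshold. Yap1, the Hippo pathway coactivator, averaged 17.5 ± 2.2 FPKM in Esrp1_KO and 17.4 ± 1.8 FPKM in WT oocytes. Ppm1b averaged 48.8 ± 6.7 FPKM in Esrp1_KO and 51.5 ± 14 FPKM in WT oocytes. Cep83 averaged 12.7 ± 1.4 FPKM in Esrp1_KO and 10.6 ± 1.1 FPKM in WT oocytes, and it was past the threshold under median-ratio scaling (limma adjusted p = 0.0407).

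Dnmt3aos, opposite noncoding exon parts of Dnmt3a, the de novo DNA methyltransferase active in growing oocytes, had 4.67, 3.48, 3.22 and 4.01 FPKM in Esrp1_KO libraries, against 1.78, 2.08, 0.410 and 2.87 FPKM in WT libraries. The groups did not overlap (log2 fold change 0.88 ± 0.28, limma adjusted p = 0.0309), and the change was 0.58 without WT replicate 3. Without replicate 1, 2 or 4 of Esrp1_KO or replicate 1 of WT, its adjusted p was 0.0507 to 0.0693. Dnmt3a averaged 5.24 ± 1.1 FPKM in Esrp1_KO and 5.86 ± 0.44 FPKM in WT oocytes (limma adjusted p = 0.447). Sp3os, opposite a coding exon of the transcription factor gene Sp3, averaged 1.61 ± 0.49 FPKM in Esrp1_KO and 0.581 ± 0.26 FPKM in WT oocytes (log2 fold change 0.72 ± 0.18, limma adjusted p = 0.0107). Rab11fip4os1 averaged 5.64 ± 0.94 FPKM in Esrp1_KO and 3.27 ± 0.75 FPKM in WT oocytes (log2 fold change 0.64 ± 0.17, limma adjusted p = 0.0141). Dhrs13os, which overlaps exons of Phf12, averaged 2.01 ± 0.61 FPKM in Esrp1_KO and 1.09 ± 0.24 FPKM in WT oocytes (log2 fold change 0.51 ± 0.17, limma adjusted p = 0.0371). Without any one library other than Esrp1_KO replicate 3 or WT replicate 4, the adjusted p of Dhrs13os was 0.0514 to 0.0869.

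The remaining 10 lower genes had log2 fold changes of −1.11 to −0.47, and 50 further genes that were not past the threshold had values between −0.85 and 0.70. Several named antisense RNAs were among those not past it. Tug1, a long noncoding RNA known to be needed for male fertility in mice, had 8.70, 3.73, 4.99 and 7.14 FPKM in Esrp1_KO libraries and 9.01, 8.45, 4.02 and 9.07 FPKM in WT libraries, with overlapping groups. Plut, antisense to the pancreatic transcription factor gene Pdx1, averaged 4.82 ± 0.45 FPKM in Esrp1_KO and 5.17 ± 0.87 FPKM in WT oocytes. Tbx3os1, opposite the T-box gene Tbx3, averaged 6.41 ± 2.2 FPKM in Esrp1_KO and 4.62 ± 0.95 FPKM in WT oocytes. In Esrp1_KO oocytes Hnf4aos averaged 3.98 ± 1.3 FPKM, Pard3bos2 3.81 ± 1.2 FPKM and Kbtbd8os 4.74 ± 1.6 FPKM. In WT oocytes Hnf4aos averaged 2.89 ± 0.29 FPKM, Pard3bos2 3.34 ± 0.52 FPKM and Kbtbd8os 6.34 ± 1.1 FPKM. Grip1os3, one of the antisense genes at Grip1, had 4.62, 11.3, 6.21 and 4.90 FPKM in Esrp1_KO libraries and 8.72, 7.70, 8.52 and 9.02 FPKM in WT libraries. Replicate 2 of Esrp1_KO alone lay above the WT libraries (limma adjusted p = 0.241, and 0.00799 without that library).

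Ndufb1-ps averaged 2.39 ± 0.99 FPKM in Esrp1_KO and 2.04 ± 0.73 FPKM in WT oocytes. Its partner Cpsf2, a subunit of the complex that cleaves transcripts before polyadenylation, fell by 0.50 on the log2 scale (limma adjusted p = 0.0118), with 12.02 ± 1.7 FPKM in Esrp1_KO and 17.3 ± 1.3 FPKM in WT oocytes. Kbtbd8, a ubiquitin ligase adaptor gene and partner of Kbtbd8os, averaged 224 ± 26 FPKM in Esrp1_KO and 290.2 ± 16 FPKM in WT oocytes (log2 fold change −0.38, limma adjusted p = 0.0308). Its adjusted p was 0.0541 to 0.0866 without any one library other than Esrp1_KO replicate 1 or WT replicate 3.

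Partners were listed for 105 of the 108 genes, as 104 distinct coding genes, and 50 genes had a partner high enough to be tested. Among these 50, both fell in 6, the noncoding gene fell and the partner rose in 3, and the noncoding gene rose and the partner fell in 1. Of the others, 7 noncoding genes rose and 7 fell with a partner not past the threshold, 11 were not past it while the partner was, and in 15 neither was. No joint count was made over all pairs on opposite strands, so these joint counts have no background beside them. Of the 58 genes without a tested partner, 4 rose (6.9%) and 16 fell (27.6%). The background is 13.9% higher and 23.1% lower of all genes tested. Across the 50 pairs, Pearson's r of the log2 fold changes was 0.16, and across all 706 tested pairs of genes on opposite strands in these files it was 0.14. The value was 0.13 over 21 pairs with overlapping exons, 0.02 over 17 with overlapping spans and 0.22 over 9 head to head. Genes are not independent replicates, and the libraries were the same in every pair.

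**Figure D3:**
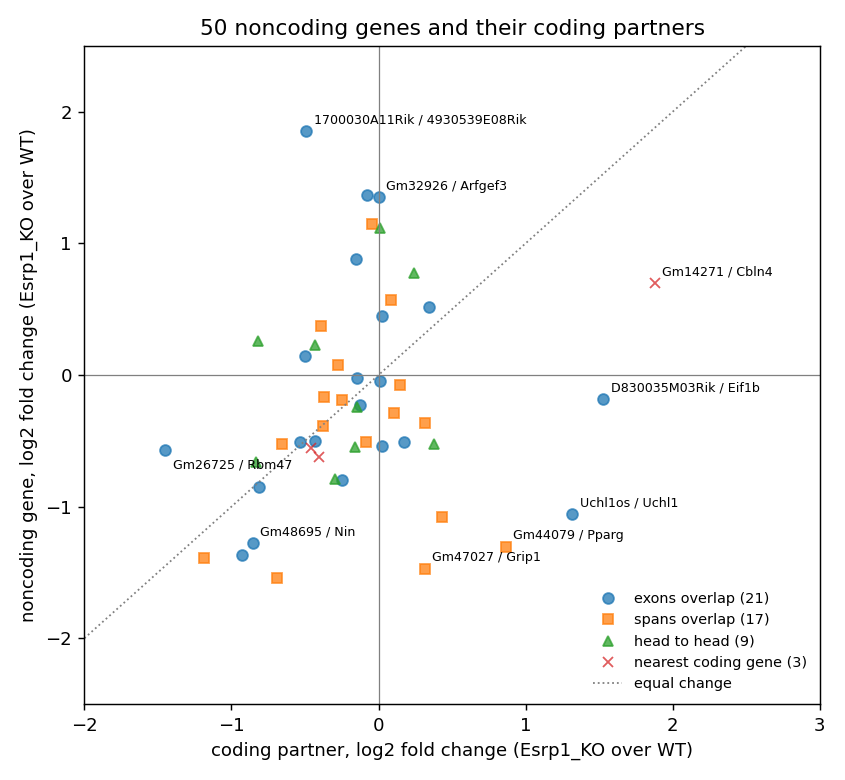
Log2 fold change, Esrp1_KO over WT, of 50 noncoding genes (vertical axis) against that of their coding partners (horizontal axis), by position of the pair, with a dotted line of equal change. The points form no line (r = 0.16), and Uchl1os with Uchl1, Gm44079 with Pparg and 1700030A11Rik with 4930539E08Rik lie in the quadrants of opposite change.

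Whether the noncoding gene and its neighbour changed by different amounts was tested on the log2 ratio of the pair within each library, over all 706 pairs on opposite strands. Of 52 such pairs that held a gene of the set, 16 were past the threshold, which is 30.8%, beside a background of 29.6% of all pairs. The noncoding gene was relatively higher in 9 and relatively lower in 7. Without each library in turn, 9 of the 16 pairs stayed past the threshold every time. Leaving out Esrp1_KO replicate 4 gave 9 pairs past it and leaving out WT replicate 4 gave 10.

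One of the largest shifts on the log2(FPKM + 1) scale was between Uchl1os (chr5:66626495-66676498, minus strand) and Uchl1, the gene of a ubiquitin hydrolase abundant in oocytes and neurons. Uchl1os had 0.762, 0.972, 0.956 and 0.371 FPKM in Esrp1_KO libraries, against 1.90, 3.32, 2.66 and 2.79 FPKM in WT libraries. Uchl1 had 44.3, 74.9, 59.3 and 44.0 FPKM in Esrp1_KO libraries, against 18.1, 21.9, 21.7 and 23.3 FPKM in WT libraries. The antisense gene was lower and the sense gene higher in all 4 Esrp1_KO libraries than in any WT library. Uchl1os fell by 1.06 and Uchl1 rose by 1.32 on the log2 scale, and the difference of −2.37 ± 0.18 had a limma adjusted p of 2.53e-05 over all pairs. They share 295 exon bases, 13.5% of the exon bases of Uchl1os, where reads of both cannot be separated.

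Gm44079 runs within Pparg, the gene of a nuclear receptor of lipid metabolism, and shares no exon bases with it. It had 0.0585, 0.304, 0.132 and 0.401 FPKM in Esrp1_KO libraries, against 1.58, 3.78, 1.28 and 1.89 FPKM in WT libraries. Pparg had 34.9, 34.8, 48.5 and 43.5 FPKM in Esrp1_KO libraries, against 23.7, 19.5, 22.2 and 20.8 FPKM in WT libraries. Both genes separated the groups completely, in opposite directions. The noncoding gene fell by 1.30 and Pparg rose by 0.87, a difference of −2.17 ± 0.28 (limma adjusted p = 0.000372), with 13 reads of Gm44079 in Esrp1_KO and 120 in WT libraries.

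Gm47027 (chr10:119600363-119617720, minus strand), within the scaffold gene Grip1, had 0.951, 3.17, 1.79 and 1.99 FPKM in Esrp1_KO libraries, against 7.38, 6.02, 7.75 and 6.76 FPKM in WT libraries, and no library crossed between the groups. It fell by 1.47 (limma adjusted p = 0.000609), while Grip1 had 2.22 ± 0.40 FPKM in Esrp1_KO and 1.58 ± 0.18 FPKM in WT oocytes (log2 fold change 0.32, limma adjusted p = 0.0867). The difference of the pair was −1.79 ± 0.26 (limma adjusted p = 0.000716). Under median-ratio scaling Grip1 was past the threshold (limma adjusted p = 0.0364), as it was under quantile normalization (0.0284).

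Gm42650, within the epidermal growth factor gene Egf, had 9.95, 21.2, 19.0 and 11.6 FPKM in Esrp1_KO libraries, against 29.5, 38.2, 39.2 and 24.6 FPKM in WT libraries. The groups did not overlap, and it fell by 1.08 (limma adjusted p = 0.00765). Egf averaged 2.48 ± 0.24 FPKM in Esrp1_KO and 1.61 ± 0.42 FPKM in WT oocytes (log2 fold change 0.43, limma adjusted p = 0.044). Egf was not past the threshold with replicate numbers as a block (adjusted p = 0.0579), nor without any one library other than WT replicate 4 (0.0616 to 0.0868). The difference of the pair was −1.51 ± 0.31 (limma adjusted p = 0.00479).

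**Figure D4:**
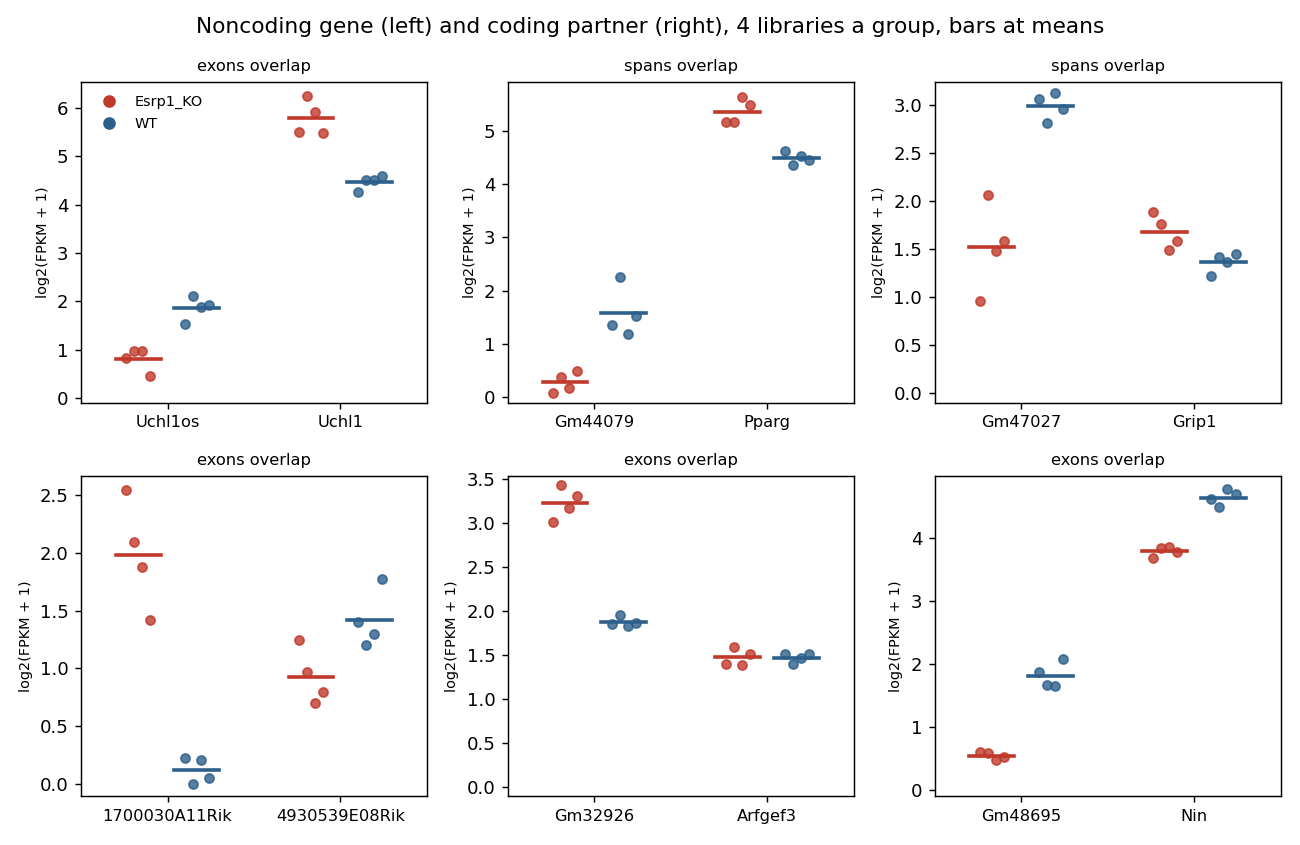
Level as log2(FPKM + 1) (vertical axis) of 6 noncoding genes (left in each panel) and their coding partners (right), in 4 Esrp1_KO libraries (red, left) and 4 WT libraries (blue, right), with bars at the means. Uchl1os with Uchl1 and Gm44079 with Pparg moved in opposite directions, Gm48695 and Nin both fell, and Gm32926 rose beside a level Arfgef3.

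In further pairs the noncoding gene and its partner differed in their change, whether or not each was past the threshold by itself. The 1700030A11Rik pair differed by 2.35 ± 0.22 (limma adjusted p = 0.00011) and the Gm32926 pair by 1.35 ± 0.16 (limma adjusted p = 0.000322). D830035M03Rik, opposite the 5′ UTR of the translation initiation factor gene Eif1b, averaged 2.22 ± 0.83 FPKM in Esrp1_KO and 2.62 ± 0.78 FPKM in WT oocytes, with overlapping groups. Eif1b rose by 1.53 on the log2 scale (limma adjusted p = 0.000179), with 164 ± 34 FPKM in Esrp1_KO and 56.0 ± 9.1 FPKM in WT oocytes, so the pair differed by −1.71 ± 0.20 (limma adjusted p = 0.000322). Gm26910, whose start lies 19 bases from that of the nuclear pore gene Seh1l, averaged 1.28 ± 0.14 FPKM in Esrp1_KO and 0.922 ± 0.33 FPKM in WT oocytes. Seh1l fell by 0.82 (limma adjusted p = 0.00213), with 27.5 ± 5.2 FPKM in Esrp1_KO and 48.7 ± 2.8 FPKM in WT oocytes, and the pair differed by 1.08 ± 0.18 (limma adjusted p = 0.00168). Under quantile normalization Gm26910 itself was past the threshold (limma adjusted p = 0.0376). Gm36243 differed from Rpgrip1l, named after their values were seen, by 0.76 ± 0.20 (limma adjusted p = 0.0182, but up to 0.0570 without Esrp1_KO replicate 4, WT replicate 3 or WT replicate 4). Hnf4aos differed from R3hdml, also named after its values were seen, by −0.49 ± 0.16 (limma adjusted p = 0.0445, but up to 0.114 without any one library other than Esrp1_KO replicate 1).

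Gm26725, opposite the 5′ UTR of the RNA-binding protein gene Rbm47, averaged 6.14 ± 2.3 FPKM in Esrp1_KO and 9.42 ± 2.6 FPKM in WT oocytes (limma adjusted p = 0.12). Rbm47 fell by 1.45 (limma adjusted p = 0.000836), with 0.378 ± 0.29 FPKM in Esrp1_KO and 2.81 ± 0.99 FPKM in WT oocytes. The pair differed by 0.88 ± 0.23 (limma adjusted p = 0.0166, 0.0507 without Esrp1_KO replicate 4, and 0.0512 without WT replicate 4). D830035M03Rik, Gm26910 and Gm26725 were named after their pair values were seen. The Dnmt3aos pair differed by 1.03 ± 0.27 (limma adjusted p = 0.0158) and stayed past the threshold without each library in turn. Weaker pairs were those of Gm45494, C330013E15Rik, 1110020A21Rik and Gm2479, with limma adjusted p of 0.0256, 0.0321, 0.0397 and 0.0456. Each of the 4 missed the threshold without any one of 4 to 6 libraries, replicate 4 of both groups among them in every case, with adjusted p of up to 0.0810, 0.0952, 0.107 and 0.106. The Gm2479 pair also missed it with replicate numbers as a block (adjusted p = 0.0692).

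Proteins that degrade or handle such RNAs were followed as lists. Of 26 genes of the nuclear exosome and its adaptors, 22 were tested, and 2 were higher and 4 lower in Esrp1_KO, beside a background of 13.9% of all genes tested higher and 23.1% lower, with a median log2 fold change of −0.14, against −0.06 over all genes tested. Exosc3, a subunit of the exosome cap, had 31.2, 36.9, 33.5 and 30.0 FPKM in Esrp1_KO libraries, against 62.3, 63.7, 66.6 and 56.6 FPKM in WT libraries, and the groups lay far apart (log2 fold change −0.90 ± 0.12, limma adjusted p = 0.000322). Mtrex, the helicase that feeds RNA to the exosome, had 5.65, 7.02, 6.46 and 6.31 FPKM in Esrp1_KO libraries, against 13.4, 12.4, 11.1 and 11.9 FPKM in WT libraries, again without overlap (log2 fold change −0.84 ± 0.12, limma adjusted p = 0.000494). Dis3, a catalytic subunit, averaged 0.885 ± 0.32 FPKM in Esrp1_KO and 1.78 ± 0.38 FPKM in WT oocytes (limma adjusted p = 0.0216, 0.0602 without Esrp1_KO replicate 4, and 0.0521 without WT replicate 1). Zfc3h1, the adaptor for polyadenylated nuclear RNA, averaged 2.01 ± 0.58 FPKM in Esrp1_KO and 3.32 ± 0.62 FPKM in WT oocytes (limma adjusted p = 0.0305). These 4 were named for the smallest p of the list. The higher ones, named after their values were seen, were the cap-binding gene Ncbp2 (log2 fold change 0.38, limma adjusted p = 0.0496) and the poly(A) polymerase gene Tent4b (0.46, limma adjusted p = 0.0338).

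Without any one of 5 libraries the adjusted p of Zfc3h1 was 0.0558 to 0.0832 (Esrp1_KO replicates 1, 3 and 4, WT replicates 2 and 3). That of Tent4b was 0.0713 to 0.0925 without any one of 5 (Esrp1_KO replicates 3 and 4, WT replicates 1, 2 and 3). That of Ncbp2 was 0.0660 to 0.133 without any one of 6, the exceptions being Esrp1_KO replicate 1 and WT replicate 2. Of 20 genes whose products cut, bind, edit or sense double-stranded RNA, which paired sense and antisense transcripts can form, 8 were tested, and the other 12 lay below the limit of 1 FPKM. By limma 0 of the 8 were past the threshold, beside a background of 36.9%, 1 had an unadjusted p below 0.05, and voom on recovered reads called 0 of 6. The 1 was Stau2, a double-stranded RNA-binding protein gene, with 10.6 ± 0.31 FPKM in Esrp1_KO and 12.8 ± 0.91 FPKM in WT oocytes. Xpo5, the export receptor of microRNA precursors, averaged 3.38 ± 0.26 FPKM in Esrp1_KO and 4.26 ± 0.60 FPKM in WT oocytes. Ago3, an Argonaute gene, averaged 14.9 ± 1.7 FPKM in Esrp1_KO and 12.6 ± 0.97 FPKM in WT oocytes, and Stau1, another RNA-binding protein gene, 49.1 ± 1.4 FPKM in Esrp1_KO and 43.5 ± 2.3 FPKM in WT oocytes. Among the 12 that were not tested, both named after their values were seen, the RNA sensor gene Ddx58 averaged 0.193 ± 0.11 FPKM in Esrp1_KO and 1.20 ± 0.18 FPKM in WT oocytes. The RNA-activated kinase gene Eif2ak2 averaged 0.0446 ± 0.030 FPKM in Esrp1_KO and 0.173 ± 0.058 FPKM in WT oocytes. In both genes every Esrp1_KO library lay below every WT library, beside a background of 36.8% without overlap among all genes tested.

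Within each group the libraries were not equal for these RNAs. Replicate 2 was the highest library of its group in 46 of the 108 genes in Esrp1_KO and in 44 in WT oocytes. For the 56 genes with under 1000 exon bases, replicate 2 lay 0.16 in Esrp1_KO and 0.18 in WT above its group's median on the log2 scale. Over all 801 tested genes that short it lay 0.24 above in Esrp1_KO and 0.11 above in WT. For the 52 genes of the set with at least 1000 exon bases, replicate 2 lay at 0.15 in Esrp1_KO and −0.035 in WT. Over all 7215 tested genes that long it lay at 0.036 and −0.038. Esrp1_KO replicate 1 lay the other way, at −0.18 for the 56 genes and −0.26 over the 801. In single libraries, 83, 97, 84 and 89 of the genes reached 1 FPKM in Esrp1_KO and 102, 95, 94 and 99 in WT. Few were listed at 0, namely 2 genes in Esrp1_KO replicate 2, 1 in Esrp1_KO replicate 4 and 3 in WT replicate 2.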

How the data were processed

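RNA was measured in 8 Smart-seq2 libraries of MII oocytes. The authors deposited 1 table of FPKM per gene for each library, and the genome build is GRCm38 per the submitters' processing notes; the sources used here name no aligner or counter. Gene types, exons and coordinates came from GENCODE M21 by Ensembl identifier (24812 of 24860 genes matched).

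Levels were tested as log2(FPKM + 1) with the trend option of limma (version 3.58.1; R version 4.3.3) over 8021 genes averaging at least 1 FPKM, with Benjamini-Hochberg adjustment and a threshold of 0.05. A fold change is on the log2(FPKM + 1) scale, which understates the change of low genes. Pair ratios were fitted alike over 706 pairs. Both fits were tested on simulated data. FPKM times exon length gave whole reads, within 0.02, for 90.0% to 90.6% of values; reads were recovered for 22630 genes, 102 of them in the set, and tested by voom as an alternative. These reads imply 24910433 to 32337966 per library, carry no molecular identifiers and cover counting error only.

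Samples were grouped by their labels. Samples with the same replicate number deviated together (correlations 0.262, 0.317, 0.226 and 0.261), each above the limit of 0.1 used here. The main fits were unpaired, and the numbers were taken as pairs in an alternative fit only. The labels name no shared animal or day, so any pairing rests on the data alone. It was not particular to equal numbers. Samples with different numbers reached 0.402 (Esrp1_KO replicate 1 with WT replicate 4) and 0.252 (Esrp1_KO replicate 2 with WT replicate 3). The fit with that block is an alternative. Other alternatives were the filter, the pseudocount, 3 scalings, sample weights, no moderation, leaving out each library, and replicates 1 and 4 or 2 and 3 alone.

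Named genes were the 20 largest changes past the threshold, the 10 highest means, bidirectional genes past the threshold, members with a name other than a clone name, the partners of these, and up to 4 genes of each list with the smallest p; others are marked. The members and lists were chosen with earlier results of these data known. Numbers were computed with Python 3.11.15, numpy 2.4.6 and pandas 2.3.3, and plots drawn with matplotlib 3.10.9.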

Additional observations from a re-analysis of the deposited data

Results flagged for a closer look

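In 10 of 162 groups of 4 libraries, 1 library stood apart from the other 3 by Dixon's criterion at the 95% level, and chance marks about 1 in 20 groups. Among noncoding genes that were past the threshold, A330093E20Rik was lowest in Esrp1_KO replicate 1 at 7.67 FPKM. Aknaos was highest in replicate 2 of both groups, at 2.07 FPKM in Esrp1_KO and 4.92 FPKM in WT. Ttc39aos1 was lowest in WT replicate 4 at 1.37 FPKM, and C330013E15Rik was lowest in WT replicate 1 at 4.92 FPKM. Among those not past it, Gm47272 was highest in WT replicate 2 at 44.4 FPKM and Tug1 was lowest in WT replicate 3 at 4.02 FPKM. Of the partners, Pdx1 was lowest in Esrp1_KO replicate 2 at 1.23 FPKM, Cpsf2 was highest in Esrp1_KO replicate 1 at 14.5 FPKM, and Orai1 was lowest in WT replicate 1 at 1.29 FPKM.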

How the results depend on the processing

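Leaving out each library in turn gave 10 to 14 noncoding genes of the set higher and 26 to 33 lower, 896 to 1112 of all genes higher and 1515 to 1816 lower, and 9 to 16 member pairs and 156 to 216 of all pairs past the threshold. With replicate numbers as a block, 13 genes of the set were higher and 34 lower and 19 member pairs passed; apart from the calls named above, the block ended no call of a named gene or pair. Without a filter, 32 member pairs and 950 of all pairs passed, since more pairs were tested. With a mean of at least 5 FPKM, fewer genes were tested, and 4 genes of the set were higher and 8 lower, 668 of all genes higher and 996 lower, with 0 member pairs and 54 of all pairs past the threshold by limma. Replicates 1 and 4 alone gave 676 of all genes higher and 137 of all pairs. Replicates 2 and 3 alone gave 6 genes of the set higher and 19 lower, 584 of all genes higher and 905 lower, and 8 member pairs and 91 of all pairs; both have fewer samples. Voom on recovered reads gave 11 genes of the set higher and 26 lower, and 37 of its calls were among the 44.

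Of 1564 values of 81 named genes under alternatives, 1360 kept direction and side of the threshold, 156 kept direction but missed the threshold, 10 newly passed it and 38 changed sign; of 288 values of 16 pairs, 233 and 55 were of the first 2 kinds. Gm20337, C330013E15Rik, Gm15485, 4930539E08Rik and Zfc3h1 missed the threshold under both median-ratio scaling and quantile normalization, and Kbtbd8 under median-ratio scaling. With a common total of nuclear genes Dhrs13os, Egf, Tent4b and Ncbp2 missed it, and by voom Gm15485 and Ncbp2 did. The sign changes fell on 11 genes that were not past the threshold, and the cause was not tested. Under median-ratio scaling the log2 fold change was 0.031 for Gm43449, 0.039 for Plut, 0.0092 for Orai1 and 0.089 for Ppm1b. Under quantile normalization it was 0.023 for Plut, 0.055 for Orai1 and 0.0056 for Ppm1b. With a common total of nuclear genes it was −0.041 for Arfgef3 and −0.051 for Yap1, and with sample weights −0.021 for Arfgef3 and −0.023 for Yap1. Arfgef3 was at −1.5e-05 with a pseudocount of 0.1 and −0.0051 by voom. Replicates 1 and 4 alone gave −0.19 for Pard3bos2, 0.25 for Orai1, −0.056 for Arfgef3, 0.053 for Ppm1b, −0.050 for Yap1 and 0.15 for Map1b. Replicates 2 and 3 alone gave 0.072 for Gm43449, 0.050 for Grip1os3, 0.032 for Plut and −0.0039 for Pdx1. Without each library in turn the ranges were −0.21 to 0.014 for Gm43449, −0.13 to 0.011 for Plut, −0.026 to 0.22 for Pard3bos2, −0.033 to 0.30 for Ndufb1-ps, −0.20 to 0.062 for Orai1, −0.039 to 0.029 for Arfgef3, −0.17 to 0.097 for Ppm1b, −0.066 to 0.066 for Yap1 and −0.33 to 0.013 for Map1b.

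Depth limits the lowest genes: Gm44079 rests on 13 reads in Esrp1_KO libraries and 1700030A11Rik on 9 in WT libraries.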
